A study of Homo sapiens with 54 samples.

Results

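The 8 genes described here act at, or just downstream of, the choice between end joining and resection at a broken DNA end, or block replication after damage. They were taken by symbol (TP53BP1, RIF1, MAD2L2, DYNLL1, ATMIN, HELB, PAXIP1 and SLFN11) from a table of 27470 genes, and all 8 were found there. Each passed the filter on low values in both cell lines and was therefore tested in every comparison.

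53BP1, the product of TP53BP1, binds modified histones beside a double strand break and holds back the nucleases that would turn the end into single stranded DNA. RIF1, REV7 (the product of MAD2L2, a subunit of shieldin) and PTIP (the product of PAXIP1) carry out its effect, DYNLL1 helps 53BP1 to oligomerise and ATMIN activates transcription of DYNLL1, and HELB is a helicase on RPA coated DNA that limits resection. Cells without BRCA1 that lose this axis regain resection and resist PARP inhibitors, while SLFN11 stops replication for good under stress, so that its loss is a known route to resistance to PARP inhibitors and platinum.

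The libraries came from 2 established triple negative breast cancer cell lines, SUM1315 (SUM1315MO2), which carries a mutant BRCA1, and MDA-MB-468, in which BRCA1 is wild type. In each line, parental cells were left untreated, were given olaparib overnight (8 µM in SUM1315, 3 µM in MDA-MB-468), cisplatin (CDDP) at a lower or a higher dose (2 and 4 µM in SUM1315, 1 and 2.5 µM in MDA-MB-468), or olaparib with either dose. OlaR cells are isogenic derivatives selected in rising doses of the PARP inhibitor and kept in it without a break (25 µM in SUM1315, 15 µM in MDA-MB-468), with no CDDP or with either dose. There were 3 libraries for each of the 18 conditions, 54 in all. Since OlaR cells were never taken out of olaparib, what the cells had become and what the higher, lasting dose did to them cannot be told apart, and each OlaR line is a single selected population. Nothing in the sources says that the 3 libraries of a condition came from separate cultures, so the p-values measure the spread between libraries, which may be technical.

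Values are the deposited adjusted read counts of a 3′ end assay, which scale every library to 1 common size. The whole reads behind them, recovered from the table, numbered 2070301 to 9268162 per library, and OlaR libraries were shallower (3446613 to 4665505 in SUM1315, 2070301 to 4676284 in MDA-MB-468) than parental ones (4977284 to 7540920 and 5574767 to 9268162). Of 5 luminal epithelial genes, KRT19, EPCAM and CDH1 had median deposited values over the 27 libraries of a line of 13470, 3026 and 806 in MDA-MB-468 and near 0 in SUM1315, while KRT8 and KRT18 had medians of 637 and 681 in MDA-MB-468 and 75.5 and 320.0 in SUM1315. The mesenchymal genes VIM, FN1, CDH2 and ZEB1 had medians of 352 to 11450 in SUM1315 and of at most 26.0 in MDA-MB-468. Basal genes were mixed, with KRT17 at 1023 in SUM1315 and 269 in MDA-MB-468, EGFR at 759.7 and 2332, KRT5 at 2.47 and 498, and KRT14 at 12.3 and 8.55. The blood cell markers PTPRC, CD3E and CD68 had medians under 5 in both lines, and of 2 fibroblast markers COL1A1 had a median of 479.4 in SUM1315 and COL1A2 one near 0, with PECAM1, an endothelial gene, at 156 there. Of the hormone receptor genes, ESR1 had medians of 3.00 in SUM1315 and 51.7 in MDA-MB-468, and PGR medians near 0.

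In RefSeq (GRCh38.p14), TP53BP1 lies at chr15:43403061-43510640, RIF1 at chr2:151409902-151534435, MAD2L2 at chr1:11674480-11691830 and PAXIP1 at chr7:154943690-155003411. DYNLL1 lies at chr12:120469842-120498493, HELB on the same chromosome at chr12:66302493-66343643, ATMIN at chr16:81035842-81047350 and SLFN11 at chr17:35350305-35373621. The assay reads the end of a transcript, so a value stands for the gene as a whole and not for an exon or a splice form.

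The start regions of the genes were examined for a feature that the choice by symbol did not use, the CCAAT box (CCAAT or, on the other strand, ATTGG), which is the binding sequence of the factor NF-Y. Of the 8 genes, 7 had windows of 300 bases in RefSeq (GRCh38.p14, 250 bases before to 50 after an annotated start), 10 windows in all, and 6 windows of 6 genes held a match, against 34.6% of all 35114 windows. The windows of RIF1 and of 1 start of MAD2L2, the genes with the most calls over all comparisons (16 each), and of SLFN11, which lies outside the axis, are shown. They lie at chr2:151409652-151409951 on the plus strand, chr1:11681099-11681398 on the minus strand and chr17:35373572-35373871 on the minus strand, are written 5′ to 3′, and carry the match in capitals. A match is a description of the letters and no evidence of binding.
RIF1: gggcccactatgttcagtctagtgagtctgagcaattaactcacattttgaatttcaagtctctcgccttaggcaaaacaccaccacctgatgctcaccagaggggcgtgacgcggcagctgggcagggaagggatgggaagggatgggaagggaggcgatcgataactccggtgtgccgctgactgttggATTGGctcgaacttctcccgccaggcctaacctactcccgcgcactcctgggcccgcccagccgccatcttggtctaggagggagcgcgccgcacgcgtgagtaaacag
MAD2L2: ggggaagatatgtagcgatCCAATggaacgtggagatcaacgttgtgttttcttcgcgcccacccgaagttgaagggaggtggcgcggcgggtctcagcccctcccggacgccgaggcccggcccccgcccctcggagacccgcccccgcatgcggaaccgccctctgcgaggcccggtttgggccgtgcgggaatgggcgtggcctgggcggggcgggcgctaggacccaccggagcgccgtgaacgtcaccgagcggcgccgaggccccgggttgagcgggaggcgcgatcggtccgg
SLFN11: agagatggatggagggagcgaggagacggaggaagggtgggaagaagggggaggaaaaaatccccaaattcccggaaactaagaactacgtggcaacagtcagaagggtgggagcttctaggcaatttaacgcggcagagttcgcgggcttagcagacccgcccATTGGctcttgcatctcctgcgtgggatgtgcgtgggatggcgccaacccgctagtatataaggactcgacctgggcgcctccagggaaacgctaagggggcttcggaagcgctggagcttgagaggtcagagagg

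OlaR cells were compared first with parental cells given olaparib overnight, which share the drug, at a lower dose and for a shorter time, but not the selection. A gene was called when its Benjamini-Hochberg adjusted p, from limma on log2(value + 1) over all genes tested in the line, was at or under 0.05. All 9 conditions of a line shared 1 estimate of the spread per gene. Replicate scatter of recovered reads (chi-square per degree of freedom over genes) was 12.79 in untreated SUM1315 and 13.1 with its lower CDDP dose alone. In the other SUM1315 conditions it was 2.493 to 6.711. The SEs and adjusted p-values of contrasts with the noisier conditions may thus be too small. In SUM1315, 4 of the 8 genes were called, MAD2L2 and PAXIP1 higher and RIF1 and ATMIN lower in OlaR cells, where 47.2% of the 13133 genes with enough signal for a test were called. In MDA-MB-468, 5 of 8 were called, RIF1 and MAD2L2 higher and DYNLL1, ATMIN and SLFN11 lower, against 51.5% of 13012 genes. The median absolute log2 fold change of the 8 genes was 0.29 in SUM1315 and 0.24 in MDA-MB-468, and that of all genes tested was 0.46 and 0.39. The share of the 8 genes that moved was thus near that of the whole table, and the median size of their changes was smaller than that over all genes.

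Against untreated parental cells, 6 of 8 genes were called in SUM1315 (54.7% of all genes) and 6 of 8 in MDA-MB-468 (53.5%). With CDDP in both arms, 3 of 8 were called at the lower dose in SUM1315 (44% of all genes) and 1 of 8 at the higher (44.8%), and 4 and 2 of 8 in MDA-MB-468 (50.8% and 52.5%). The OlaR comparisons share their OlaR libraries between the first pair of contrasts, and are given side by side for each gene. The olaparib-treated and the untreated libraries likewise serve as reference in several contrasts here and below. Results that share such libraries are not independent of each other. Setting the median log2 value of all libraries equal moved the median over all genes of the OlaR differences by 0.04 to 0.15 on the log2 scale, upward each time, most with the higher CDDP dose in MDA-MB-468. That centring moved the share of higher among called genes from 44.9% to 60.0% in that contrast, from 45.2% to 56.2% at its lower dose and from 44.5% to 54.8% at the higher dose in SUM1315. The OlaR calls that this ended or made among the 8 genes are named with the genes.

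**Figure D1:**
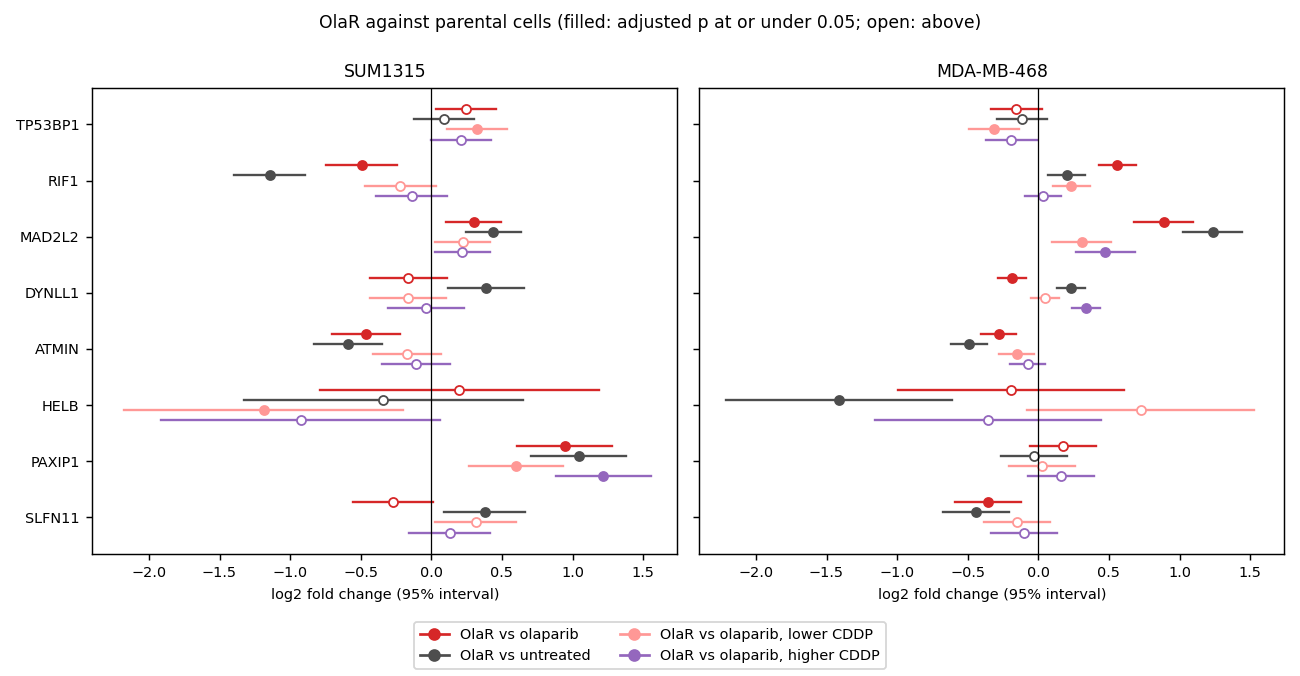
Log2 fold changes of the 8 genes between OlaR and parental cells in SUM1315 (left) and MDA-MB-468 (right), as points with unadjusted 95% intervals, for the contrast with olaparib-treated cells, with untreated cells, and with olaparib-treated cells at each CDDP dose. PAXIP1 lies to the right of 0 in all 4 contrasts of SUM1315, from 0.60 to 1.22, and RIF1 is at -0.49 in SUM1315 and at 0.56 in MDA-MB-468 in the contrast with olaparib-treated cells.

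TP53BP1 itself, the gene of 53BP1, was not called against olaparib-treated or untreated cells in either line. In SUM1315 its adjusted read counts were 469.7, 508 and 505 untreated, 436, 483 and 413 with olaparib and 505, 545 and 524 in OlaR cells. OlaR libraries lay above the olaparib libraries without overlap, but the difference missed the threshold (log2 fold change 0.24 ± 0.10 (SE), adjusted p = 0.0542). It was called with equal medians (0.33, adjusted p = 0.0102) and with recovered reads in edgeR at median-of-ratios sizes (0.28, adjusted p = 0.0369), and without olaparib replicate 2 (0.31, adjusted p = 0.0348). In MDA-MB-468 the 3 conditions gave 490.4, 549 and 483 untreated, 512, 458 and 604 with olaparib and 483, 474 and 448 in OlaR cells. OlaR and olaparib-treated cells overlapped (log2 fold change -0.16 ± 0.09, adjusted p = 0.142), and without olaparib replicate 2 the difference was called (-0.25, adjusted p = 0.0286). With the lower CDDP dose in both arms the lines moved oppositely: TP53BP1 was higher in OlaR cells of SUM1315 (log2 fold change 0.33 ± 0.10, adjusted p = 0.0114) and lower in those of MDA-MB-468 (log2 fold change -0.31 ± 0.09, adjusted p = 0.00273). The SUM1315 call was lost without olaparib + CDDP replicate 3 (0.21, adjusted p = 0.122) or OlaR + CDDP replicate 1 (0.27, adjusted p = 0.0683). With the higher dose neither line was called. The difference was 0.21, adjusted p = 0.097 in SUM1315, called with equal medians (0.31, adjusted p = 0.0151), and -0.19, adjusted p = 0.0673 in MDA-MB-468, called without olaparib + CDDP replicate 2 (-0.24, adjusted p = 0.0471) or OlaR + CDDP replicate 1 (-0.26, adjusted p = 0.0239). The 3′ end of TP53BP1 overlaps TUBGCP4 on the opposite strand, for which up to 379 reads per library were counted. The strand setting of the counting is not given in the sources used here, so reads in the overlap could have been dropped or given to the other gene. TUBGCP4 was itself higher in OlaR than in olaparib-treated cells of SUM1315 (log2 fold change 0.70, adjusted p = 0.000124) and was not called in MDA-MB-468 (0.085, adjusted p = 0.603). Away from the 3′ ends given by RefSeq, GENCODE spans also overlap on opposite strands for RIF1 and NEB (at most 33 reads in a library), and for DYNLL1 with SRSF9 (49) and NRAV (47), and a GENCODE span of MAD2L2 that reaches beyond its RefSeq interval overlaps FBXO44 (127) and FBXO6 (49). MAD2L2 also overlaps DRAXIN (1), and PAXIP1 the lncRNA genes ENSG00000272760 and ENSG00000273183. ATMIN is overlapped over its whole span by ENSG00000284512, a protein coding gene on the opposite strand. These 3 ENSG genes are not in the table used here.

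RIF1, which 53BP1 recruits after its phosphorylation by ATM, moved in opposite directions in the OlaR cells of the lines. In SUM1315 it stood at 1146, 1083 and 1302 untreated, 776, 661 and 814 with olaparib and 439.8, 599 and 567 in OlaR cells. The levels fell stepwise with no overlap between the 3 conditions, and OlaR cells were lower than olaparib-treated (log2 fold change -0.49 ± 0.12, adjusted p = 0.00134) and untreated cells (log2 fold change -1.14 ± 0.12, adjusted p = 1.93e-09), the latter a 2.21-fold difference. In bulk libraries, fewer expressing cells and less RNA per cell cannot be told apart. In MDA-MB-468 it stood at 1042, 985 and 913 untreated, 759.8, 729.9 and 801 with olaparib and 1063, 1139.8 and 1176 in OlaR cells. Here olaparib-treated cells were lowest and OlaR cells highest, so that OlaR cells were above olaparib-treated (log2 fold change 0.56 ± 0.06, adjusted p = 2.32e-10) and, by a smaller margin, above untreated cells (log2 fold change 0.20 ± 0.06, adjusted p = 0.00774; 0.15, adjusted p = 0.0779 without untreated replicate 3). With CDDP in both arms, RIF1 was not called in SUM1315 (log2 fold change -0.22, adjusted p = 0.148 at the lower dose, -0.28, adjusted p = 0.0376 with sample weights, -0.36, adjusted p = 0.0258 without OlaR + CDDP replicate 2, and -0.14, adjusted p = 0.384 at the higher). In MDA-MB-468 it stayed higher at the lower dose (log2 fold change 0.23 ± 0.06, adjusted p = 0.00205) and differed by only 0.03, adjusted p = 0.698 at the higher, a difference that equal medians called (0.18, adjusted p = 0.0183).

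MAD2L2, whose product REV7 links shieldin to RIF1 and is also a subunit of the translesion polymerase zeta, was higher in OlaR cells of both lines. In MDA-MB-468 its counts were 195.7, 191 and 194 untreated, 241, 275 and 228 with olaparib and 419, 439.7 and 521 in OlaR cells. The 3 conditions did not overlap, and OlaR cells exceeded olaparib-treated cells 1.85-fold (log2 fold change 0.89 ± 0.10, adjusted p = 3.37e-10) and untreated cells 2.36-fold (log2 fold change 1.24 ± 0.10, adjusted p = 1e-14). In SUM1315 the values were 571, 628 and 688 untreated, 727, 703 and 641 with olaparib and 771, 852 and 934 in OlaR cells. All 3 OlaR libraries were above the others, by less than in MDA-MB-468 (log2 fold change 0.30 ± 0.10, adjusted p = 0.0101 against olaparib, log2 fold change 0.44 ± 0.10, adjusted p = 0.000254 against untreated). The smaller of these was lost without olaparib replicate 3 (0.25, adjusted p = 0.0582) or OlaR replicate 3 (0.23, adjusted p = 0.0755). With CDDP, MAD2L2 was higher in OlaR cells of MDA-MB-468 at the lower (log2 fold change 0.31 ± 0.10, adjusted p = 0.0118) and the higher dose (log2 fold change 0.47 ± 0.10, adjusted p = 0.000132). At the lower dose the libraries overlapped, and the call was lost without olaparib + CDDP replicate 2 (0.19, adjusted p = 0.169) or OlaR + CDDP replicate 3 (0.21, adjusted p = 0.122). In SUM1315 the differences under CDDP just missed the threshold (log2 fold change 0.22, adjusted p = 0.0599 and 0.22, adjusted p = 0.0619), and equal medians called both (0.27, adjusted p = 0.0257 and 0.32, adjusted p = 0.00781), as did sample weights (0.24, adjusted p = 0.0273 and 0.23, adjusted p = 0.0355). At the higher dose it was also called without olaparib + CDDP replicate 1 (0.26, adjusted p = 0.0486).

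PAXIP1, which encodes PTIP, the partner of 53BP1 that recruits the nuclease Artemis and also works in histone methylation, had the largest difference of the 8 genes between OlaR and olaparib-treated cells of SUM1315 without CDDP. Its counts there were 117, 118 and 93.2 untreated, 103, 141 and 109.9 with olaparib and 213, 243 and 221 in OlaR cells. All 3 OlaR libraries lay far above the 6 others, 1.92-fold over olaparib-treated (log2 fold change 0.94 ± 0.16, adjusted p = 1.71e-05) and 2.06-fold over untreated cells (log2 fold change 1.04 ± 0.16, adjusted p = 2.38e-06). The same held with the lower CDDP dose (123, 119 and 119 with olaparib, 192, 173 and 185 in OlaR, log2 fold change 0.60 ± 0.16, adjusted p = 0.00342). With the higher dose, 116, 103 and 85.1 stood against 234, 239 and 233 (log2 fold change 1.22 ± 0.16, adjusted p = 2.77e-07). The OlaR libraries thus lay above the parental ones of the same treatment at each dose, and these 4 calls held in every fit that left out 1 library. In MDA-MB-468 PAXIP1 gave 268, 212 and 202 untreated, 211, 176 and 199.8 with olaparib and 215, 238 and 210.1 in OlaR cells, with overlap between the 3 conditions. None of the 4 contrasts was called there (log2 fold changes -0.03 to 0.18), except under equal medians with the higher CDDP dose (0.31, adjusted p = 0.0232). The antisense gene PAXIP1-AS2 overlaps the 3′ end of PAXIP1, had at most 32 reads in a library against 90 to 188 for PAXIP1 in SUM1315, and fell in OlaR cells of that line (log2 fold change -1.33, adjusted p = 0.0204).

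DYNLL1, a light chain that 53BP1 binds and an inhibitor of resection in its own right, had a mean in OlaR cells between those of untreated and olaparib-treated cells in both lines. In MDA-MB-468 its counts were 3419, 3686 and 3469.6 untreated, 4662, 4528 and 4908 with olaparib and 4079.5, 4379 and 3958 in OlaR cells. No conditions overlapped, so that OlaR cells were lower than olaparib-treated (log2 fold change -0.18 ± 0.05, adjusted p = 0.00151) and higher than untreated cells (log2 fold change 0.23 ± 0.05, adjusted p = 8.83e-05). With the higher CDDP dose the order turned, 3157, 3004 and 2963 in olaparib-treated and 3975, 3656 and 3892 in OlaR cells (log2 fold change 0.34 ± 0.05, adjusted p = 8.73e-08), while at the lower dose the difference was 0.04, adjusted p = 0.468, and was called under equal medians (0.15, adjusted p = 0.0133). In SUM1315 the values were 2449, 2344 and 1643 untreated, 3221, 3259 and 2818 with olaparib and 2699, 2719 and 2879 in OlaR cells. OlaR cells differed from untreated (log2 fold change 0.39 ± 0.13, adjusted p = 0.0141) but not detectably from olaparib-treated cells (log2 fold change -0.16 ± 0.13, adjusted p = 0.335, interval -0.43 to 0.11). The first rested on untreated replicate 3, the lowest library, without which it was 0.21, adjusted p = 0.18. GENCODE v44 lists 7 processed pseudogenes of DYNLL1, none of which is in the table, so reads shared with these copies could have been dropped or assigned to DYNLL1.

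ATMIN, the zinc finger factor that activates DYNLL1, was lower in OlaR cells of both lines. In SUM1315 it gave 567, 526 and 707 untreated, 546, 546 and 546 with olaparib and 450.3, 394 and 349 in OlaR cells. OlaR libraries lay below all others (log2 fold change -0.46 ± 0.12, adjusted p = 0.0017 against olaparib, log2 fold change -0.59 ± 0.12, adjusted p = 8.9e-05 against untreated). In MDA-MB-468 the counts were 1314, 1400.2 and 1364, then 1189, 1068 and 1278, then 989, 918 and 994 in the same order. The 3 conditions did not overlap (log2 fold change -0.28 ± 0.06, adjusted p = 0.000135 against olaparib, log2 fold change -0.49 ± 0.06, adjusted p = 1.97e-09 against untreated). With CDDP in both arms only the lower dose in MDA-MB-468 was called (log2 fold change -0.15 ± 0.06, adjusted p = 0.0343), and that call was lost without 5 of the 6 libraries, with adjusted p up to 0.0974, and under equal medians (-0.05, adjusted p = 0.512). It was also lost in both edgeR fits of recovered reads (adjusted p = 0.0626 and 0.145) and when only the groups compared were fitted (adjusted p = 0.0586).

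HELB was close to the limit of the assay, with 2 to 41 recovered reads per library over both lines, and only large differences could have been called. In MDA-MB-468 it fell from 29.0, 19.2 and 27.3 untreated to 6.22, 15.5 and 10.4 with olaparib and 10.6, 9.75 and 6.3 in OlaR cells. The untreated libraries were highest, OlaR cells were lower than untreated cells (log2 fold change -1.41 ± 0.40, adjusted p = 0.00244), and OlaR and olaparib-treated cells overlapped (interval of the log2 difference -0.9952 to 0.61). In SUM1315 HELB was called once, with the lower CDDP dose, at 16.9, 14.8 and 16.1 in olaparib-treated and 6.09, 7.6 and 5.72 in OlaR cells (log2 fold change -1.19 ± 0.49, adjusted p = 0.0463). The OlaR libraries there rest on 4, 6 and 4 reads, and the call was lost in each of the 6 fits that left out 1 library (adjusted p up to 0.108) and in both fits of recovered reads (adjusted p = 0.0771 and 0.0819), with equal medians (0.0559) and with no filter (0.107).

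SLFN11, the replication blocker outside the 53BP1 axis, was lower in OlaR cells of MDA-MB-468 and was present in every library of both lines, with 80 to 400 reads. In MDA-MB-468 it gave 187, 195 and 198 untreated, 179.9, 201 and 165 with olaparib and 129.5, 160.0 and 137 in OlaR cells. OlaR libraries lay below the 6 others, 1.36-fold below untreated (log2 fold change -0.44 ± 0.12, adjusted p = 0.00112) and 1.28-fold below olaparib-treated cells (log2 fold change -0.35 ± 0.12, adjusted p = 0.00918). The second call was lost without olaparib replicate 2 (-0.28, adjusted p = 0.0676) or OlaR replicate 1 (-0.29, adjusted p = 0.0605). In SUM1315 SLFN11 gave 173, 169 and 181 untreated, 259.6, 297 and 267 with olaparib and 222, 235 and 224 in OlaR cells. OlaR cells were above untreated cells (log2 fold change 0.38 ± 0.14, adjusted p = 0.0231) and below olaparib-treated cells by a difference that missed the threshold (log2 fold change -0.27 ± 0.14, adjusted p = 0.114). The call was lost without untreated replicate 1 (0.37, adjusted p = 0.0509), untreated replicate 2 (0.35, adjusted p = 0.0613) or OlaR replicate 2 (0.35, adjusted p = 0.066). With CDDP in both arms SLFN11 was not called in either line. The nearest was the lower dose in SUM1315 (log2 fold change 0.32, adjusted p = 0.0679), which was called with equal medians (0.36, adjusted p = 0.0355), with sample weights (0.41, adjusted p = 0.0118), and without olaparib + CDDP replicate 3 (0.42, adjusted p = 0.0277) or OlaR + CDDP replicate 2 (0.42, adjusted p = 0.0276).

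**Figure D2:**
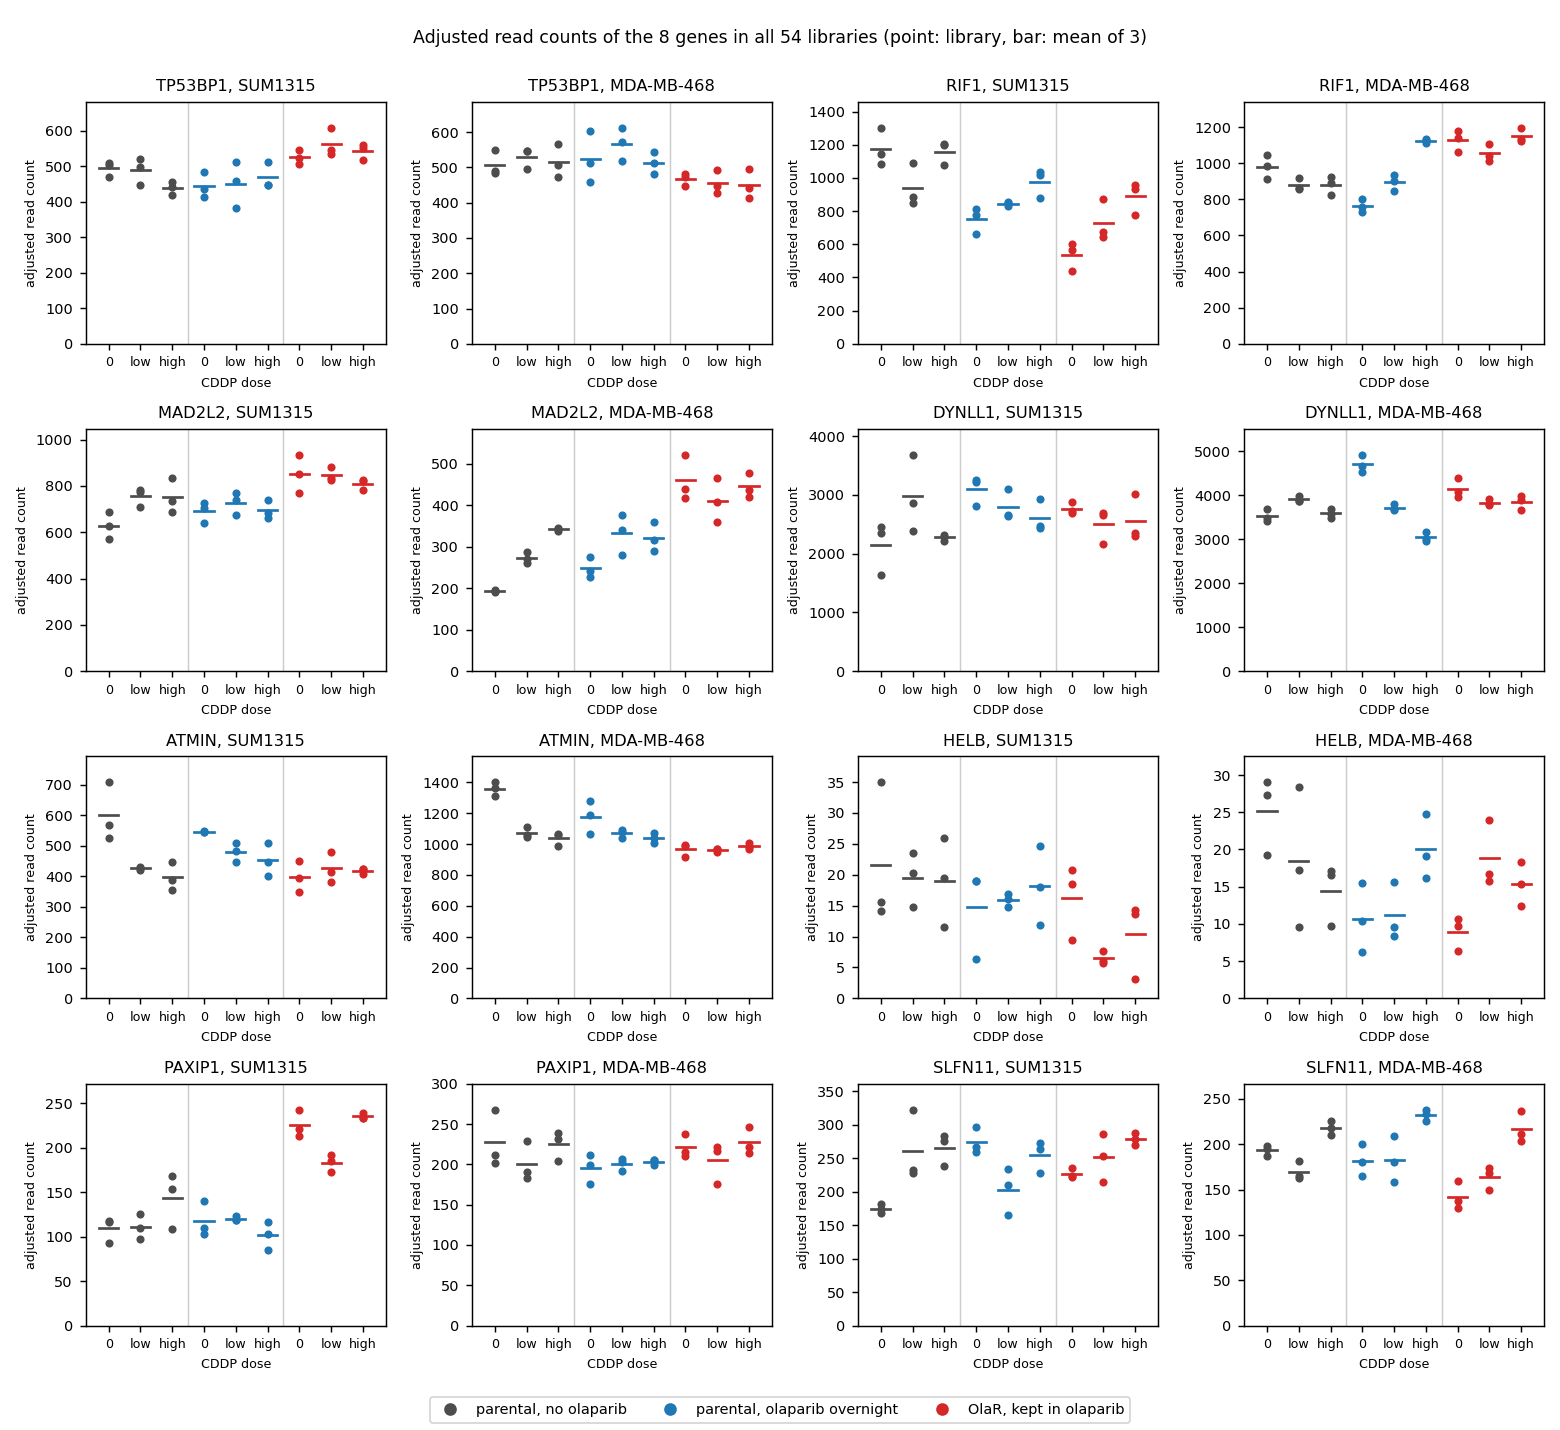
Adjusted read counts of the 8 genes (y axes from 0) in every library by CDDP dose (0, lower, higher) in parental cells without olaparib, parental cells with olaparib and OlaR cells, for SUM1315 and MDA-MB-468, with each point a library and each bar the mean of 3. The OlaR points of PAXIP1 in SUM1315 stand above the parental points at 173 to 243, and DYNLL1 in olaparib-treated MDA-MB-468 cells declines from 4699 to 3041 with CDDP.

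Whether the OlaR difference (against olaparib-treated cells) itself differed between the lines was tested in a joint fit of all 54 libraries, in which 14390 genes were tested and 42% were called. Of the 8 genes, 4 were called. RIF1 differed most, with the SUM1315 difference below that of MDA-MB-468 by 1.05 on the log2 scale (log2 fold change -1.05 ± 0.14, adjusted p = 4.76e-08). MAD2L2 rose less in SUM1315 (log2 fold change -0.59 ± 0.14, adjusted p = 0.000708), PAXIP1 rose more (log2 fold change 0.77 ± 0.19, adjusted p = 0.00111), and TP53BP1 was relatively higher in SUM1315 (log2 fold change 0.40 ± 0.14, adjusted p = 0.0149), a call lost without MDA-MB-468 olaparib replicate 3 (0.29, adjusted p = 0.0849). For DYNLL1, ATMIN and SLFN11 no difference between the lines was called, with intervals of -0.29 to 0.33, -0.44 to 0.07 and -0.26 to 0.43. The lines differ in BRCA1, in the doses used and in all else, and these cannot be told apart.

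Before any drug, the lines already differed in 5 of the 8 genes, where 73% of the genes tested were called. Untreated SUM1315 cells had 3.22-fold more MAD2L2 (log2 fold change 1.69 ± 0.10, adjusted p = 3.31e-20) and slightly more RIF1 (log2 fold change 0.26 ± 0.10, adjusted p = 0.0188, lost without untreated replicate 3 of either line). They had 2.28-fold less ATMIN (log2 fold change -1.19 ± 0.09, adjusted p = 2.59e-16), 2.06-fold less PAXIP1 (log2 fold change -1.04 ± 0.14, adjusted p = 2.94e-09) and 1.67-fold less DYNLL1 (log2 fold change -0.74 ± 0.11, adjusted p = 4.97e-08). The rise of PAXIP1 in SUM1315 OlaR cells brought it to 225 ± 15.6 (SD, n = 3), beside 227 ± 35.5 in untreated MDA-MB-468 cells, while MAD2L2 in MDA-MB-468 OlaR cells, at 460.0 ± 54.2, was still under the 629 ± 58.3 of untreated SUM1315 cells.

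Overnight olaparib in parental cells was taken next. RIF1 fell and DYNLL1 rose in both lines, by 0.65 and 0.55 (log2) in SUM1315 (adjusted p = 8.76e-05 and 0.00143) and by 0.36 and 0.41 in MDA-MB-468 (adjusted p = 2.81e-05 and 3.46e-09). These calls held without any 1 library. SLFN11 rose 1.57-fold in SUM1315 (log2 fold change 0.65 ± 0.14, adjusted p = 0.000435), where its olaparib libraries (260 to 297) all lay above the untreated ones (169 to 181). In all, 3 of 8 genes were called in SUM1315 (36% of all genes) and 5 of 8 in MDA-MB-468 (21.5%), the others being MAD2L2 (log2 fold change 0.35 ± 0.10, adjusted p = 0.011), ATMIN (log2 fold change -0.21 ± 0.06, adjusted p = 0.01) and HELB (log2 fold change -1.22 ± 0.40, adjusted p = 0.0216). The MAD2L2 call was lost without olaparib replicate 2 (0.27, adjusted p = 0.0952), that of ATMIN without olaparib replicate 2 (-0.14, adjusted p = 0.142) or untreated replicate 2 (-0.19, adjusted p = 0.0517), and that of HELB without untreated replicate 1 or 3 or olaparib replicate 1 (adjusted p up to 0.148).

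Added to the lower CDDP dose, olaparib moved none of the 8 genes past the threshold by limma in either line, nor by edgeR on recovered reads, with 1 of 8 at an unadjusted p under 0.05 in each line, while over all genes 15.3% were called in SUM1315 and 3.88% in MDA-MB-468. With sample weights SLFN11 in SUM1315 was called (-0.29, adjusted p = 0.0494). Added to the higher dose, 1 of 8 was called in SUM1315 (12.8% of all genes) and 2 of 8 in MDA-MB-468 (11.9%). In MDA-MB-468 these were RIF1, at 924, 889.8 and 821 with CDDP alone and 1113, 1126 and 1134 with both drugs (log2 fold change 0.36 ± 0.06, adjusted p = 7.13e-05), and DYNLL1 (log2 fold change -0.24 ± 0.05, adjusted p = 0.000577). Both changed in the direction opposite to that seen with olaparib alone. In SUM1315 PAXIP1 was lower with both drugs (log2 fold change -0.49 ± 0.16, adjusted p = 0.0463) with overlapping libraries, and this call was lost without replicate 1 or 2 of CDDP or replicate 2 or 3 of the combination (adjusted p up to 0.231).

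With CDDP alone, ATMIN fell and MAD2L2 rose at both doses in both lines. ATMIN in MDA-MB-468 went from 1314, 1400.2 and 1364 to 1112, 1045 and 1058 and 1056, 1066 and 991 with the lower and higher dose (log2 fold change -0.34 ± 0.06, adjusted p = 3.09e-05 and log2 fold change -0.39 ± 0.06, adjusted p = 2.43e-06), and in SUM1315 it fell by 0.48 and 0.59 on the log2 scale (adjusted p = 0.00184 and 0.000134). MAD2L2 in MDA-MB-468 went from 195.7, 191 and 194 to 272, 288 and 261 and then 342, 337 and 346. It stepped up with each dose without overlap (log2 fold change 0.49 ± 0.10, adjusted p = 0.00032 and log2 fold change 0.81 ± 0.10, adjusted p = 2.18e-08). In SUM1315 the rises of MAD2L2 were smaller (log2 fold change 0.27 ± 0.10, adjusted p = 0.0307 and log2 fold change 0.25 ± 0.10, adjusted p = 0.0313). Each was lost in 4 of 6 fits without 1 library (untreated replicates 1 and 2 and CDDP replicates 1 and 2 at the lower dose, untreated replicates 1 and 2 and CDDP replicates 2 and 3 at the higher), with adjusted p up to 0.161 and 0.188, and under equal medians (0.19, adjusted p = 0.14 and 0.19, adjusted p = 0.124). Each was also lost when only the groups compared were fitted (adjusted p = 0.122 and 0.0921).

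SLFN11 rose with CDDP alone in SUM1315, at 232, 322 and 227 with the lower and 282, 275 and 238 with the higher dose, above the untreated 173, 169 and 181 throughout (log2 fold change 0.56 ± 0.14, adjusted p = 0.0023 and log2 fold change 0.60 ± 0.14, adjusted p = 0.000798). In MDA-MB-468 it was not called with CDDP alone (-0.19, adjusted p = 0.279 and 0.17, adjusted p = 0.301). DYNLL1 was called at the lower dose in both lines (log2 fold change 0.47 ± 0.13, adjusted p = 0.00622 in SUM1315, log2 fold change 0.15 ± 0.05, adjusted p = 0.0249 in MDA-MB-468) and RIF1 at the lower dose in SUM1315 (log2 fold change -0.33 ± 0.12, adjusted p = 0.0395). Each of these 3 calls was lost in some of the fits that left out 1 library. Only for DYNLL1 in SUM1315 did such a fit move the estimate over 1.5 times. In SUM1315, DYNLL1 was lost without untreated replicate 3 (0.29, adjusted p = 0.0942) or CDDP replicate 2 (0.31, adjusted p = 0.0884), and RIF1 without untreated replicates 1 or 3 or CDDP replicates 1 or 2 (adjusted p up to 0.171). Both were also lost when only the groups compared were fitted (adjusted p = 0.112 for DYNLL1 and 0.102 for RIF1). RIF1 was lost as well in 1 edgeR fit of recovered reads (adjusted p = 0.0622) and with no filter (adjusted p = 0.0627). In MDA-MB-468, DYNLL1 was lost without untreated replicates 1 or 3 or CDDP replicate 1 (adjusted p up to 0.113). At the higher dose, RIF1 in MDA-MB-468 missed the threshold (-0.16, adjusted p = 0.0674) but was called in both edgeR fits (adjusted p = 0.0306 and 0.0423). PAXIP1 in SUM1315 missed it too (0.37, adjusted p = 0.0644). It was called in 1 edgeR fit (0.44, adjusted p = 0.0281) and without CDDP replicate 3 (0.56, adjusted p = 0.00994). Counted over the 8 genes, 5 were called at the lower and 3 at the higher dose in SUM1315 (33.9% and 43.9% of all genes) and 3 and 2 in MDA-MB-468 (20% and 25.1%).

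**Figure D3:**
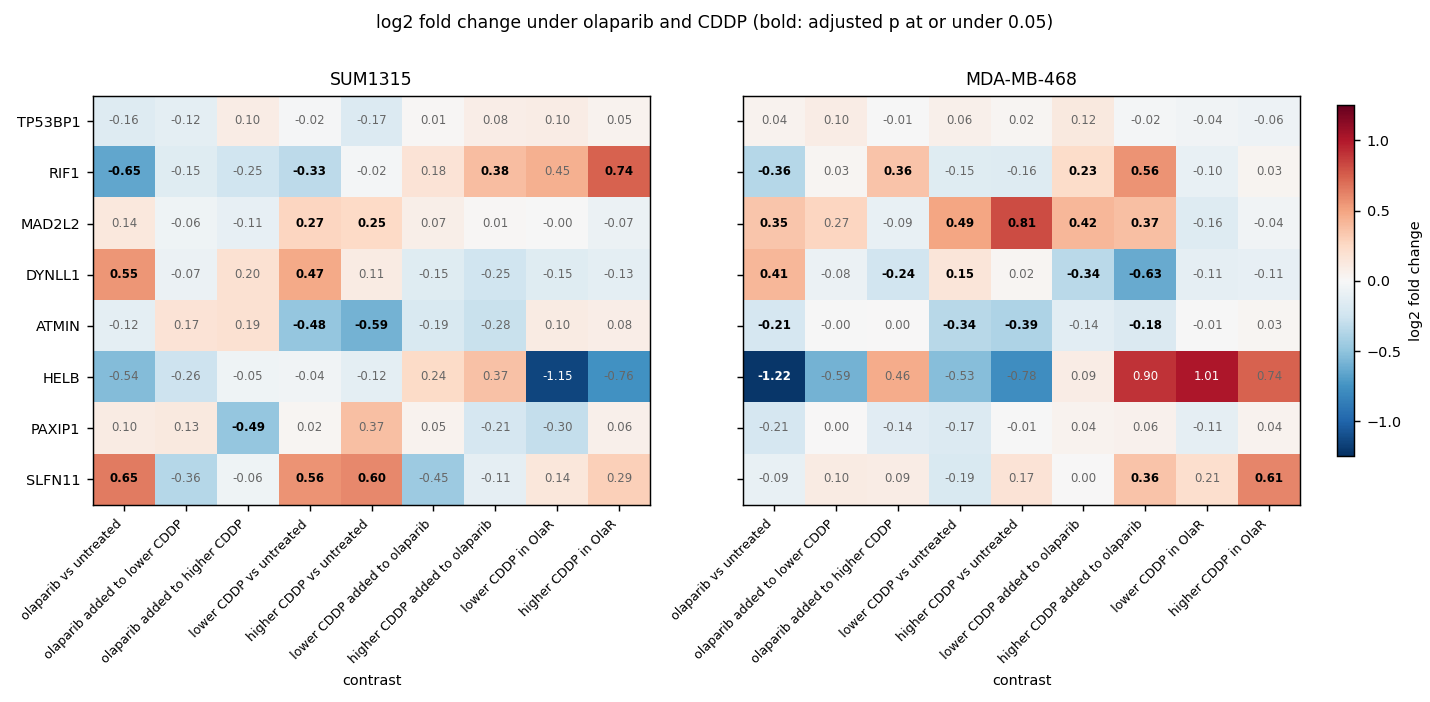
Log2 fold changes (colour and printed value, bold where the adjusted p was at or under 0.05) of the 8 genes for 3 olaparib and 6 CDDP contrasts in SUM1315 (left) and MDA-MB-468 (right). The row of TP53BP1 has no bold value in either line, ATMIN has values from -0.34 to -0.59 under CDDP alone, and the largest bold rise is that of MAD2L2 at the higher CDDP dose in MDA-MB-468, 0.81.

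In olaparib-treated cells of MDA-MB-468, RIF1 rose and DYNLL1 fell with the CDDP dose. RIF1 went from 759.8, 729.9 and 801 to 904, 846 and 937 and 1113, 1126 and 1134 (log2 fold change 0.23 ± 0.06, adjusted p = 0.0233 and log2 fold change 0.56 ± 0.06, adjusted p = 1.21e-09). DYNLL1 went from 4662, 4528 and 4908 to 3796, 3657 and 3671 and 3157, 3004 and 2963 (log2 fold change -0.34 ± 0.05, adjusted p = 2.4e-06 and log2 fold change -0.63 ± 0.05, adjusted p = 7.89e-15). Neither gene's libraries overlapped between doses. MAD2L2 was higher at both doses (log2 fold change 0.42 ± 0.10, adjusted p = 0.00863 and log2 fold change 0.37 ± 0.10, adjusted p = 0.00563), and at the higher dose SLFN11 was higher (log2 fold change 0.36 ± 0.12, adjusted p = 0.0195) and ATMIN lower (log2 fold change -0.18 ± 0.06, adjusted p = 0.0288). Of 8 genes, 3 were called at the lower dose (5.26% of all genes) and 5 at the higher (23.1%). In SUM1315 none was called at the lower dose by limma or by edgeR (3.76% of all genes, 1 of 8, SLFN11, at an unadjusted p under 0.05, called with sample weights at -0.51, adjusted p = 0.0119) and RIF1 alone at the higher (8.44%, log2 fold change 0.38 ± 0.12, adjusted p = 0.0488).

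Several of these calls were lost in fits that left out 1 library. The rise of RIF1 at the higher dose in SUM1315 was lost without olaparib replicate 1 or 2 or replicate 2 or 3 of the combination (adjusted p up to 0.237) and under equal medians (0.35, adjusted p = 0.0743). In MDA-MB-468, RIF1 at the lower dose was lost without olaparib replicate 1 or 2 or combination replicate 1 or 3 (adjusted p up to 0.133), and MAD2L2 without combination replicate 1 (0.32, adjusted p = 0.111) or olaparib replicate 3 (0.36, adjusted p = 0.0543). At the higher dose MAD2L2 was lost without combination replicate 3 (0.29, adjusted p = 0.0715), SLFN11 without olaparib replicate 1 or 3 or combination replicate 1 or 3 (adjusted p up to 0.11), and ATMIN without olaparib replicate 1 or 3 or combination replicate 1 or 2 (log2 fold change as small as -0.12, adjusted p up to 0.224).

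In OlaR cells, whose libraries were the shallowest, few of the 8 genes were called with CDDP, near the share over all genes. At the lower dose none was called in either line by limma or by edgeR on recovered reads, with 2 of 8 at an unadjusted p under 0.05 in each (over all genes, 1.42% were called in SUM1315 and 4.76% in MDA-MB-468). With sample weights RIF1 in SUM1315 was called (0.40, adjusted p = 0.031). At the higher dose 1 was called in each line (16.7% and 18.7% of all genes). In SUM1315 this was RIF1, which rose from 439.8, 599 and 567 to 958, 775 and 934 (log2 fold change 0.74 ± 0.12, adjusted p = 6.7e-05). In MDA-MB-468 it was SLFN11, which rose from 129.5, 160.0 and 137 to 203, 237 and 212 (log2 fold change 0.61 ± 0.12, adjusted p = 8.45e-05). Libraries with and without CDDP did not overlap in either case, and both calls held without any 1 library. With the higher dose, SLFN11 in OlaR cells of MDA-MB-468 was near the level of parental cells given CDDP alone, 218, 211 and 225. The 3 other Schlafen genes tested there rose as well.

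Whether the response to the higher CDDP dose differed between OlaR and olaparib-treated parental cells was tested as an interaction. In MDA-MB-468, 3 of 8 genes were called (15% of all genes). RIF1 rose by 0.56 in olaparib-treated cells and stood at 0.03 in OlaR cells (as a difference, log2 fold change -0.53 ± 0.09, adjusted p = 3.31e-05). DYNLL1 fell by 0.63 in olaparib-treated cells and was at -0.11 in OlaR cells (as a difference, log2 fold change 0.52 ± 0.07, adjusted p = 1.88e-07). For both genes the OlaR cells responded less than the treated parental cells, and the calls held without any 1 library. MAD2L2 was at the threshold (log2 fold change -0.41 ± 0.15, adjusted p = 0.048), and was lost in 8 of 12 fits without 1 library, those without OlaR, OlaR + CDDP or combination replicates 2 or 3 or olaparib replicates 1 or 3 (adjusted p up to 0.175), and under equal medians (-0.33, adjusted p = 0.123), which called ATMIN (0.29, adjusted p = 0.018). The fit with the replicate number as a block gave it an adjusted p of 0.0507. In SUM1315 no gene was called by limma or by edgeR (6.4% of all genes, with 2 of 8, RIF1 and ATMIN, at an unadjusted p under 0.05), and the interval for RIF1 was 0.00 to 0.71.

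**Figure D4:**
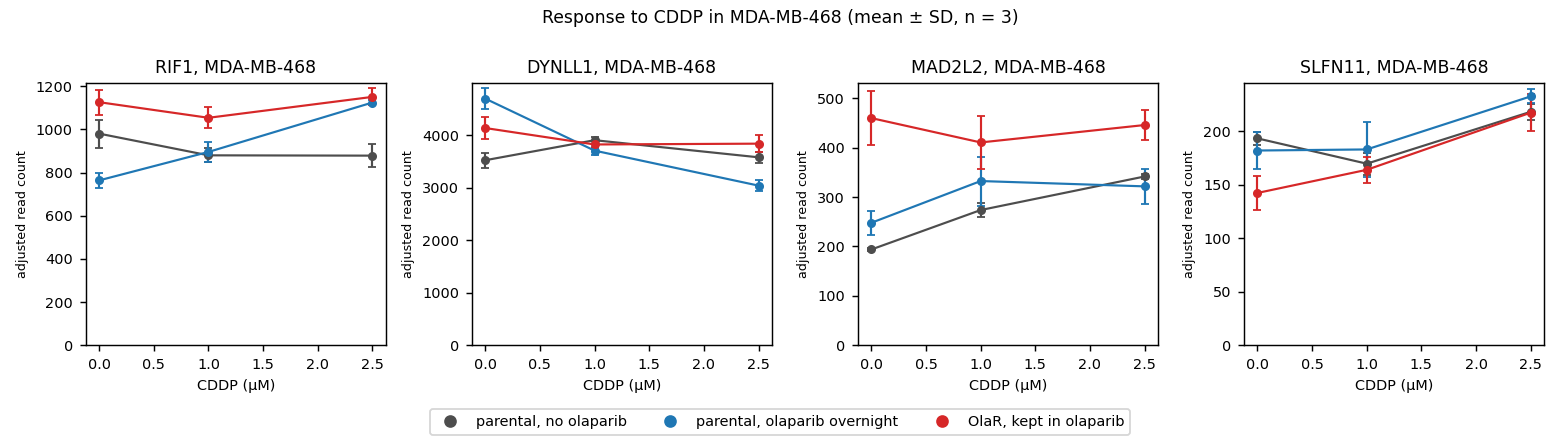
Adjusted read counts (y axes from 0, mean ± SD, n = 3) of RIF1, DYNLL1, MAD2L2 and SLFN11 against CDDP dose in MDA-MB-468, for parental cells without olaparib, with olaparib and for OlaR cells. In olaparib-treated cells RIF1 climbs from 764 to 1125 while in OlaR cells it stays between 1054 and 1151, and SLFN11 in OlaR cells climbs from 142.2 to 217.

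Around the 8 genes, 6 lists of partners were read in the same contrast, OlaR against olaparib-treated cells, where 21.6% of all genes rose and 25.7% fell in SUM1315 and 23.6% and 27.9% in MDA-MB-468, with medians over all genes of -0.05 and -0.03. Apart from SLFN11, the genes of these lists were not followed through the fits that left out 1 library or the other alternatives. Among genes of shieldin, its helpers and the CST complex with its polymerase, 3 rose and 2 fell of 12 tested in SUM1315 (median log2 fold change 0.11) and 2 rose and 3 fell of 12 in MDA-MB-468 (median -0.10). TRIP13, the ATPase that opens REV7 and so takes shieldin apart, rose in both lines, as MAD2L2 did, from 391 ± 26.5 to 827 ± 73.8, log2 fold change 1.08 in SUM1315 and from 386 ± 31.0 to 631 ± 18.4, log2 fold change 0.71 in MDA-MB-468. POLA2, the B subunit of polymerase alpha, rose in SUM1315 (100.4 ± 7.81 to 209 ± 15.6, log2 fold change 1.05) and fell in MDA-MB-468 (458 ± 28.2 to 381 ± 39.0, log2 fold change -0.27). REV3L, the catalytic subunit of polymerase zeta, to which REV7 also belongs, fell in SUM1315 (635 ± 58.7 to 318 ± 22.4, log2 fold change -0.99), and DCLRE1C, the gene of Artemis, fell in MDA-MB-468 (116 ± 9.71 to 75.1 ± 14.6, log2 fold change -0.63). SHLD3 is not in the table used here, and TEN1 had no read.

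Among genes that bring 53BP1 to a break or remove it, 5 rose and 5 fell of 16 tested in SUM1315 (median log2 fold change 0.06) and 2 rose and 4 fell of 14 in MDA-MB-468 (median -0.05). ATM, the kinase that phosphorylates 53BP1, fell in SUM1315 (207 ± 28.4 to 64.7 ± 8.48, log2 fold change -1.66). NUDT16L1, which binds the histone reading domain of 53BP1 and keeps it off chromatin, fell there as well (538 ± 92.4 to 233 ± 29.5, log2 fold change -1.20), and KMT2C, a methyltransferase that works with PTIP, rose (386 ± 24.5 to 629.7 ± 37.0, log2 fold change 0.70). In MDA-MB-468 the ubiquitin ligase RNF8 fell (590.3 ± 41.3 to 299.6 ± 8.53, log2 fold change -0.97), PAGR1, which binds PTIP, fell (1413 ± 52.2 to 1089 ± 35.9, log2 fold change -0.38), and H2AX (listed as H2AFX) fell (513 ± 53.2 to 359.9 ± 12.6, log2 fold change -0.50).

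Of the resection genes, 5 rose and 3 fell of 13 tested in SUM1315 (median log2 fold change 0.20) and 5 rose and 4 fell of 13 in MDA-MB-468 (median -0.02). NBN, a subunit of the MRN complex that starts resection, fell in both lines (247 ± 34.5 to 125 ± 6.15, log2 fold change -0.97 in SUM1315, 304 ± 13.9 to 203 ± 9.73, log2 fold change -0.58 in MDA-MB-468). In SUM1315 the helicase gene BLM rose (80.7 ± 10.3 to 156 ± 43.3, log2 fold change 0.91) and its partner RMI1 fell (150.1 ± 6.06 to 88.6 ± 15.5, log2 fold change -0.77). In MDA-MB-468 RBBP8, the gene of CtIP, rose (246 ± 33.1 to 402 ± 13.1, log2 fold change 0.71) and MRE11 fell (231 ± 24.5 to 148 ± 31.3, log2 fold change -0.66). Of the end joining genes, 5 rose and 2 fell of 9 tested in SUM1315 (median log2 fold change 0.34) and 4 rose and 1 fell of 9 in MDA-MB-468 (median 0.28). XRCC6, the gene of Ku70, rose in both lines (1003 ± 102 to 1331 ± 58.2, log2 fold change 0.41 and 806 ± 50.8 to 1391 ± 38.1, log2 fold change 0.79). PRKDC, the gene of DNA-PKcs, rose (1049.9 ± 42.9 to 2240.3 ± 137, log2 fold change 1.09) and XRCC4 fell (129 ± 9.14 to 80.0 ± 16.1, log2 fold change -0.70) in SUM1315, while in MDA-MB-468 XRCC5, the gene of Ku80, fell (2009 ± 41.1 to 1532 ± 67.4, log2 fold change -0.39) and PAXX (listed as C9orf142) rose (241 ± 39.1 to 357 ± 8.27, log2 fold change 0.58).

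In the Schlafen family, which includes SLFN11, 1 rose and 1 fell of 4 tested in SUM1315 (median log2 fold change -0.03) and 2 rose and 2 fell of 4 in MDA-MB-468 (median 0.05). SLFN5 moved in opposite directions, falling in SUM1315 (1267 ± 49.5 to 767 ± 62.4, log2 fold change -0.73) and rising in MDA-MB-468 (25.9 ± 0.848 to 66.2 ± 10.05, log2 fold change 1.31). In MDA-MB-468 SLFN12 fell (86.5 ± 5.56 to 59.7 ± 7.15, log2 fold change -0.53, adjusted p = 0.0163) and SLFN13 rose (42.4 ± 8.51 to 58.2 ± 5.13, log2 fold change 0.46, adjusted p = 0.0418). In SUM1315 the weakly expressed SLFN12L rose (4.13 ± 3.68 to 13.6 ± 2.87, log2 fold change 1.801, adjusted p = 0.0195). SLFN14 had at most 1 read in a library. Of partners and regulators of SLFN11, 1 rose and 2 fell of 8 tested in SUM1315 (median log2 fold change -0.11) and 3 rose and 1 fell of 8 in MDA-MB-468 (median 0.04). EZH2, the methyltransferase that can silence SLFN11, rose in both lines (213 ± 28.9 to 267 ± 4.23, log2 fold change 0.33, adjusted p = 0.0309 in SUM1315 and 479.7 ± 34.5 to 614 ± 23.6, log2 fold change 0.36, adjusted p = 5.46e-05 in MDA-MB-468). DDB1, a part of the ubiquitin ligase that SLFN11 engages at stressed forks, fell in MDA-MB-468 (1964 ± 67.5 to 1331 ± 122, log2 fold change -0.56), where the licensing factor CDT1 rose (724 ± 46.9 to 877 ± 53.4, log2 fold change 0.28). ETS1, a transcription factor, fell in SUM1315 (654 ± 112 to 497 ± 29.0, log2 fold change -0.38, adjusted p = 0.00705), as did CUL4A (357 ± 28.0 to 287 ± 29.9, log2 fold change -0.32, adjusted p = 0.0468).

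The same lists were read with the higher CDDP dose. Against untreated cells, where 22.2% of all genes rose and 21.7% fell in SUM1315 and 13.3% and 11.8% in MDA-MB-468, 8 rose and 2 fell of 13 resection genes in SUM1315 and 8 and 0 of 13 in MDA-MB-468. In that contrast 5 rose and 1 fell of 8 SLFN11 partner genes in SUM1315 and 5 and 0 of 8 in MDA-MB-468, and 5 rose and 1 fell of 12 shieldin and CST genes in SUM1315 and 4 and 1 of 12 in MDA-MB-468. Of the remaining lists, 4 rose and 0 fell of 9 end joining genes in SUM1315 and 2 and 0 of 9 in MDA-MB-468, 2 rose and 1 fell of 4 Schlafen genes in SUM1315 and 0 and 0 of 4 in MDA-MB-468, and 3 rose and 6 fell of 16 recruitment genes in SUM1315 and 1 and 2 of 14 in MDA-MB-468. With that dose added to olaparib, 4.35% of all genes rose and 4.09% fell in SUM1315 and 10.1% and 13.1% in MDA-MB-468. There 5 rose and 0 fell of 13 resection genes in SUM1315 and 10 and 0 in MDA-MB-468. Of 12 shieldin and CST genes it was 3 and 0, then 6 and 1, and of 8 SLFN11 partner genes 3 and 0, then 3 and 3. Of 9 end joining genes it was 1 and 0 in each line, and of 4 Schlafen genes 0 and 0, then 2 and 0. Of recruitment genes it was 0 and 1 of 16, then 1 and 2 of 14. In OlaR cells given that dose, where 7.13% of all genes rose and 9.61% fell in SUM1315 and 7.43% and 11.2% in MDA-MB-468, 1 rose and 0 fell of 4 Schlafen genes in SUM1315 and 4 and 0 of 4 in MDA-MB-468, SLFN11 included. Of the other lists there, 5 rose and 0 fell of 13 resection genes in SUM1315 and 3 and 0 of 13 in MDA-MB-468, 4 rose and 0 fell of 8 SLFN11 partner genes in SUM1315 and 3 and 0 of 8 in MDA-MB-468, and 4 rose and 1 fell of 12 shieldin and CST genes in SUM1315 and 1 and 0 of 12 in MDA-MB-468. Last, 0 rose and 2 fell of 9 end joining genes in SUM1315 and 0 and 4 of 9 in MDA-MB-468, and 1 rose and 1 fell of 16 recruitment genes in SUM1315 and 3 and 4 of 14 in MDA-MB-468.

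**Figure D5:**
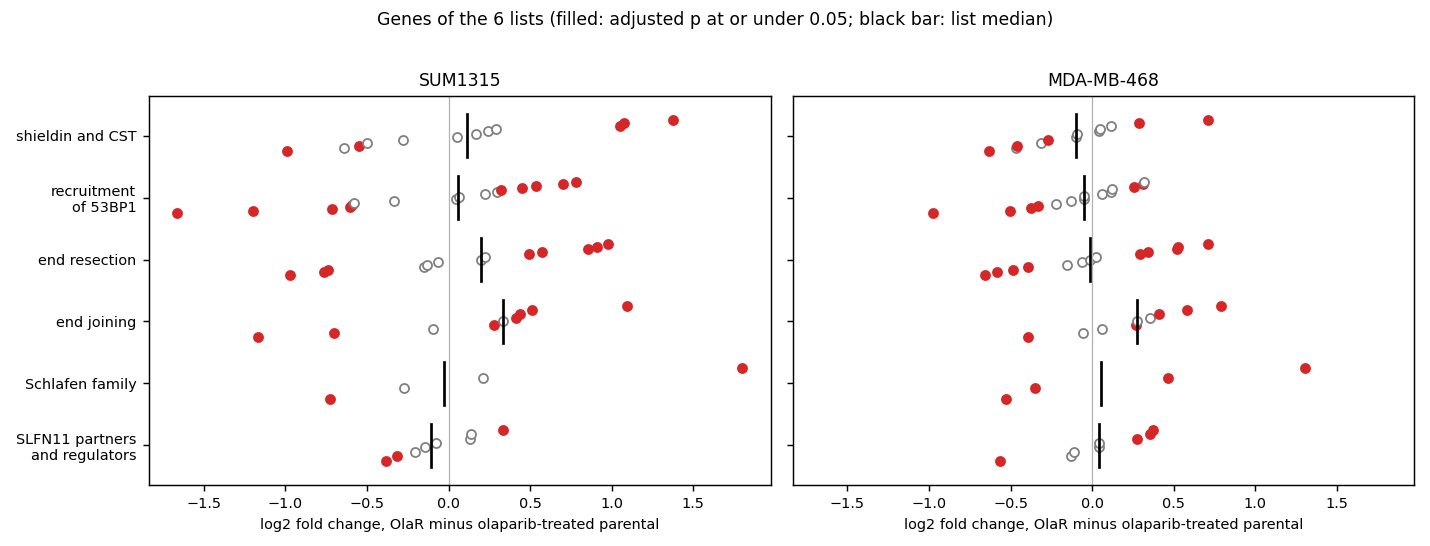
Log2 fold changes between OlaR and olaparib-treated parental cells for the tested genes of the 6 lists (rows) in SUM1315 (left) and MDA-MB-468 (right), each point a gene, filled where the adjusted p was at or under 0.05, with a black bar at the list's median. Filled points lie on both sides of 0 in every list of both lines, and the list medians run from -0.11 to 0.34.

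The genes whose log2 values followed each of the 8 most closely over the 27 libraries of a line were also read, among genes with a mean of at least 50. These correlations are descriptions, since the libraries share conditions and depth. RIF1 was followed by THOC2 and TXLNG in SUM1315 (Pearson's r from 0.91 to 0.90) and by LCA5, IER5L and NT5E in MDA-MB-468 (r from 0.92 to 0.88). For MAD2L2 they were FIBP, POMP and FIS1 (r from 0.90 to 0.86) and CENPM, EIF6 and TAGLN2 (r from 0.93 to 0.91). PAXIP1 was close to MRPL30, PHB and UBE3C in SUM1315 (r from 0.92 to 0.91) and less so to TMEM209, SLC31A1 and ZCCHC7 in MDA-MB-468 (r from 0.66 to 0.59). DYNLL1 was matched by SERF2, MGST3 and LAMP2 (r from 0.92 to 0.89) and by SNRPD1, CUL4A and UBE2D3 (r from 0.89 to 0.88). With ATMIN went ZMAT3, GRINA and ZNF507 (r from 0.83 to 0.82) and HOTAIRM1, DHRS2 and SCD (r from 0.92 to 0.91). SLFN11 was matched by CNOT8, CDCA4 and PSMD10 (r from 0.79 to 0.76) and FBXO5, MBD4 and BRD2 (r from 0.83 to 0.79), and TP53BP1 by ZBTB18, CFLAR and DSP (r from 0.80 to 0.80) and KHSRP, ZCCHC2 and CTDNEP1 (r from 0.80 to 0.80). HELB had the loosest matches among the 8 in SUM1315, PCYT1A, XRN1 and MCTP1 (r from 0.72 to 0.69), and gave C17orf97 and ANKRD40 in MDA-MB-468 (r from 0.66 to 0.62). No gene was among the closest 3 of the same member in both lines.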

How the data were processed

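Gene expression was measured with QuantSeq 3′ mRNA (FWD) libraries, demultiplexed with CASAVA 1.8.2 and aligned to hg38. The submitters' processing notes also name FastQC, STAR, HTSeq and edgeR, with no settings. The table deposited by the authors holds read counts adjusted by edgeR to a common library size of 5585170, treated here as signal values and not as counts. Inverting that adjustment (common dispersion 0.01039) yielded whole reads that give back 100% of 1483380 values within a relative difference of 1e-06. The authors' own log2 fold changes, p-values and FDR values against untreated parental cells were also deposited and were not used.

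For each line, limma 3.58.1 (R 4.3.3) was fitted with trend to log2(value + 1) of 27 libraries in 9 conditions, keeping genes that reached 10 in 3 or more libraries, since a count test does not suit adjusted values. edgeR 4.0.16 on the recovered reads was an alternative. Comparisons between lines came from 1 fit of 54 libraries. The limit for a call was a Benjamini-Hochberg adjusted p of 0.05 across the genes kept. Fold changes are on the log2(value + 1) scale, which understates those of low genes, and 95% intervals are unadjusted. Groups and doses (µM) follow the sample titles. The labels' treatment text writes mM and the series text gives another higher CDDP dose for MDA-MB-468. Alternatives changed the pseudocount (0.5 or 5), the filter, the libraries fitted, the replicate block, centring (equal medians), sample weights, a log2 fold limit of 1 and the values (recovered reads), and left out each library. The fits were tested on simulated data with the same dispersion in every condition. That test cannot show how they perform where conditions differ in spread.

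The 8 genes, the 6 lists and the markers were chosen with earlier results of these data known. Genes named were the 8, up to 3 per list and line with the smallest adjusted p among those called, and the 3 per member and line most like it, except 2 that are not reported here. Genes that overlap a member (GENCODE v44) or lie within 2 Mb were named after their values were seen.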

Additional observations from a re-analysis of the deposited data

Results flagged for a closer look

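Differences between groups in their response were tested directly, and 7 passed. For the OlaR difference between the lines, 4 of 8 genes were called, near the share over all genes (42%). For the response to the higher CDDP dose in OlaR against olaparib-treated cells, 3 of 8 were called in MDA-MB-468 (15% of all genes). In SUM1315, 0 of 8 were called in that test (6.4% of all genes). Between SUM1315 and MDA-MB-468, the difference of OlaR from olaparib-treated cells differed for RIF1 by -1.05 (log2), for MAD2L2 by -0.59, for PAXIP1 by 0.77 and for TP53BP1 by 0.40. RIF1 was the 1 member whose OlaR difference was called in opposite directions in the lines in that contrast without CDDP, -0.49 in SUM1315 and 0.56 in MDA-MB-468. The OlaR cells of MDA-MB-468 also differed from olaparib-treated parental cells in their response to the higher CDDP dose, by -0.53 for RIF1, -0.41 for MAD2L2 and 0.52 for DYNLL1. The value for TP53BP1 was lost without MDA-MB-468 olaparib replicate 3 (0.29, adjusted p = 0.0849), and that for MAD2L2 under CDDP was lost in 8 of 12 fits without 1 library.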

How the results depend on the processing

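No called result for the 8 genes changed direction under any alternative run, while 55 of 162 uncalled results did in at least 1 alternative, with no turned value past the threshold. Of 78 called results, 51 were kept in every fit that left out 1 library and 27 were lost in at least 1. Counts of called member results, out of 32 OlaR, 24 olaparib and 48 CDDP tests per line, moved over 1.5 times under 2 alternatives that keep all libraries, and for CDDP in SUM1315 without untreated replicate 1 (from 10 to 6). Over all genes, 44% to 54.7% were called in OlaR contrasts, 3.88% to 36% in olaparib contrasts and 1.42% to 43.9% in CDDP contrasts. For the interaction of CDDP with OlaR these shares were 6.4% in SUM1315 and 15% in MDA-MB-468, and for that with the line 42%. Contrasts pooled in a count share libraries. With a log2 fold limit of 1, OlaR counts went from 14 to 4 in SUM1315 and from 17 to 2 in MDA-MB-468, olaparib counts from 4 to 0 and from 7 to 1, CDDP counts from 10 to 0 and from 14 to 0, the interaction of CDDP with OlaR in MDA-MB-468 from 3 to 0, the interaction with the line from 4 to 1, and genes called in the whole table (OlaR against olaparib) from 6203 to 2177 and from 6702 to 1855. That limit uses the same fit, and few of the 8 genes changed that much. For the other contrasts, the whole table was not counted under that limit. Fitting only the groups compared, the CDDP count went from 10 to 5 in SUM1315 and from 14 to 11 in MDA-MB-468. Such fits use fewer libraries and only the spread of those groups, which was uneven in SUM1315. Why the counts moved was not tested.

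Leaving out 1 library also made 19 calls that the full fits did not make. Over those fits, counts ran from 12 to 16 (SUM1315) and 15 to 18 (MDA-MB-468) for OlaR, 3 to 5 and 5 to 8 for olaparib, 6 to 11 and 11 to 15 for CDDP, 0 to 0 and 2 to 4 for CDDP with OlaR, 3 to 4 for the interaction with the line, 4 to 5 between the untreated lines, and 5408 to 6403 and 6062 to 6746 for the whole table. Same-numbered libraries did not deviate together (r from -0.10 to 0.16 in SUM1315 and from -0.05 to 0.04 in MDA-MB-468), so the numbers do not pair them. With the replicate number as a block, counts of calls were 14 and 17 for OlaR, 4 and 7 for olaparib, 10 and 14 for CDDP, 0 and 2 for CDDP with OlaR, 4 for the interaction with the line, and 6195 and 6658 in the whole table, and the block changed no other call than MAD2L2 (adjusted p = 0.0507).

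Equal medians moved the share of higher among called genes by over 10 points in further contrasts. In SUM1315 it went from 57.2% to 46.7% for the lower CDDP dose alone and from 38.5% to 25% for that dose in OlaR cells. In MDA-MB-468 it went from 47.7% to 34.7% for olaparib added to the lower dose, from 43.6% to 32.7% and 43.5% to 33.1% for the lower and higher dose added to olaparib, from 39.8% to 50.9% for the higher dose in OlaR cells, and from 50.4% to 69.4% for the interaction. Depth limits HELB, at 2 to 41 reads per library, and the OlaR libraries were the shallowest.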

Other observations

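Tested genes that lie wholly or partly within 2 Mb of PAXIP1, a window chosen after the data were seen, were read in OlaR against olaparib-treated cells. In SUM1315, 5 of 10 rose and 1 fell, and in MDA-MB-468, where PAXIP1 itself was not called, 5 of 7 rose and 1 fell, while 21.6% and 23.6% of all genes rose. EN2, a homeobox gene, rose in both lines (log2 fold change 1.49 in SUM1315 and 1.503 in MDA-MB-468), and so did NOM1, a nucleolar protein gene (1.02 and 1.17), and RBM33, which encodes an RNA binding protein (0.43 and 0.42). SHH, the gene of the ligand sonic hedgehog, had a log2 fold change of 6.27 in SUM1315, and LMBR1, whose intron holds a limb enhancer of SHH, one of 0.54 in MDA-MB-468, both called. Of neighbours of MAD2L2, 17 of 34 rose and 1 fell in SUM1315, and 8 of 30 rose and 9 fell in MDA-MB-468, while MAD2L2 itself had log2 fold changes of 0.30 and 0.89. Of neighbours of SLFN11, which was not called in SUM1315, 11 of 24 rose and 5 fell in that line, and 6 of 22 rose and 2 fell in MDA-MB-468, where SLFN11 fell. Of neighbours of DYNLL1, 3 of 43 rose and 16 fell in SUM1315, and 5 of 44 rose and 8 fell in MDA-MB-468. For TP53BP1, RIF1, ATMIN and HELB the shares that rose ran from 0% to 27.9% and those that fell from 7.14% to 30.8% over both lines, where 25.7% and 27.9% of all genes fell. No copy number was measured here.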
